A study of Mus musculus with 23 samples.

Results

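The 33 genes described here encode enzymes that make nucleotide sugars and carriers of the SLC35 family. Many of the carriers move nucleotide sugars into the Golgi and the endoplasmic reticulum (ER), and others move ATP or the sulfate donor PAPS. The 33 genes were taken by name from the 55416 gene rows of the count tables, and 32 were among the 13405 genes abundant enough to be tested. The exception was Gfpt2, which had 0 to 9 counts in a library. There were 20 enzymes, in 5 branches, and 13 carriers of the SLC35A, SLC35B, SLC35C and SLC35D families.

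RNA-seq was done on mucosa scraped from the proximal small intestine. The mice were of the strain C57BL/6JRccHsd and labelled female. All mice were 42 days old and had eaten their diet for 3 weeks from day 21. The GAL42 group (12 mice) took 16% of its energy from galactose and 16% from glucose, and the GLU42 group (11 mice) took 32% from glucose, with all other parts of the diet shared. The groups are called galactose and glucose below, and each library came from its own mouse.

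Cells build the sugar chains of glycoproteins, mucins and glycolipids from sugars that are first activated by linking them to a nucleotide. UDP-GlcNAc is made by the hexosamine pathway from fructose-6-phosphate, CMP-sialic acid is made from UDP-GlcNAc, GDP-fucose is made from GDP-mannose, and UDP-glucuronate and UDP-xylose are made from UDP-glucose. Most activated sugars are made in the cytosol, but CMP-sialic acid is made in the nucleus and UDP-xylose mainly inside the ER and Golgi. Antiporters of the SLC35 family exchange them across the Golgi membrane. In the intestine the chains they feed form much of the mucus and of the glycocalyx on the brush border, and dietary galactose enters the same pool as UDP-galactose.

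Libraries held 15382583 to 17174721 counts in genes. The enterocyte markers were abundant in every library (Apoa4 at 18849 to 34768 CPM, the count scaled to a common library size). Of 5 genes listed as ileal, Fabp6 had 0 to 9 counts, Slc10a2 1 to 25 and Fgf15 1 to 125. The others were abundant, with 4632 to 7693 counts for Slc51a and 1312 to 2239 for Slc51b. Galactose replicate 12, labelled female, held 225 counts of 4 Y-linked genes where no other library held more than 1. Of Xist, an RNA of female cells, it held 4 counts, against 778 to 2351 in the other libraries. These counts disagree with its sex label, so results are also given without it. Galactose replicate 7 was the library whose removal moved the number of calls most. Galactose replicate 2 had 0.0702% of its counts in 12 genes of the exocrine pancreas, against at most 0.00095% in any other library. No batch is named in the labels.

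By edgeR's quasi-likelihood test, adjusted by Benjamini-Hochberg over all genes, 0 of 32 members were called between the diets, and the background was 0% of all genes tested. At an unadjusted p under 0.05 there were 7 of 32 members, against 14.4% of all genes. Of these, 6 had more counts on galactose (8.63% of all genes did) and 1, Ugdh, had fewer (5.72%). A positive difference, galactose minus glucose, was measured for 20 of 32 members and for 49.5% of all genes. The median log2 difference was 0.07 over the members and -0.0017 over all genes. Of 19 enzymes tested, 13 had a positive difference, 6 were higher and 1 lower at an unadjusted p under 0.05, and the median was 0.10. Of 13 carriers, 7 had a positive difference, 0 reached that p, and the median was 0.0093. Whether enzymes and carriers differ was not tested. In scrapings, fewer cells of a type and less RNA per cell cannot be told apart.

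DESeq2 and limma-voom with sample quality weights each called 1 member, Gmppb (adjusted p = 0.0434 and 0.0429), in a background of 0.985% and 1.25% of all genes. Without galactose replicate 7, edgeR called 2 members, Gmppb (adjusted p = 0.0399) and Nagk (adjusted p = 0.0427), against 1.64% of all genes. Replicate 7 held the lowest galactose value of both genes (42.4 and 31.7 CPM). Without replicate 12 it called 0 members and 0% of all genes. Without both libraries, an alternative added after seeing the data, it called the same 2 genes, in a background of 2.4%. At an unadjusted p under 0.05 there were 9 members without replicate 7 (18.8% of all genes), 9 without replicate 12 (14.8%) and 11 without both (19.6%). A positive difference was then found for 20, 19 and 21 of 32 members, against 49.4%, 47.2% and 47.6% of all genes.

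**Figure D1:**
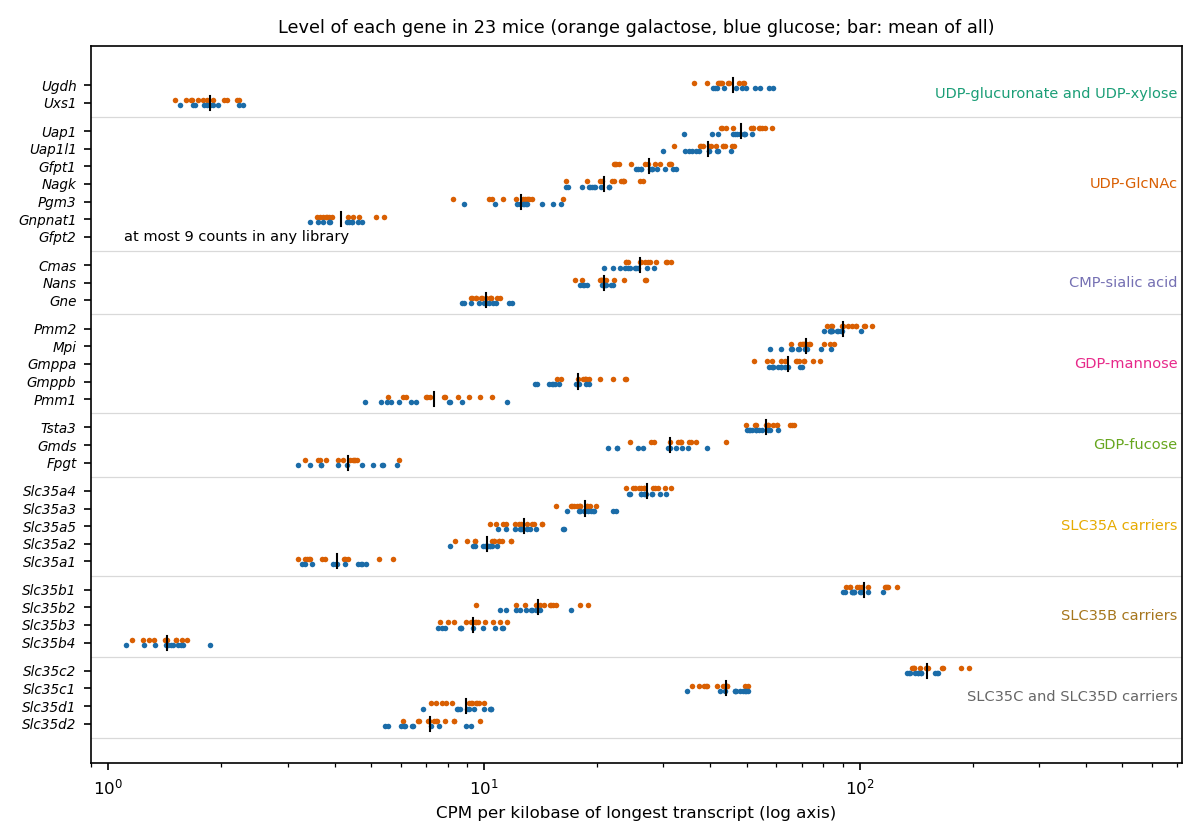
Level of each gene in each of the 23 mice, as CPM per kilobase of the longest transcript on a log axis, grouped by branch. Orange points are galactose mice, blue points glucose mice and the bar is the mean of all mice. The levels run from 1.43 for Slc35b4 to 151 for Slc35c2, and the colours overlap for every gene. Gfpt2, with at most 9 counts in any library, is named with no points.

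Levels are compared between genes as CPM per kilobase of the longest transcript, averaged over 23 mice. Which transcripts the cells used was not measured, so these levels and the ratios of pairs below depend on that choice of length. The top of that scale was held by Slc35c2, a Golgi protein of the GDP-fucose pathway (151), and by Slc35b1, the carrier that exchanges ATP and ADP across the ER membrane (103). The mannose enzymes Pmm2, Mpi and Gmppa followed at 90.4, 71.8 and 64.2. The lowest levels were those of Gfpt2 (0.0529), the second form of the enzyme that opens the hexosamine pathway, Slc35b4 (1.43), a carrier of UDP-xylose and UDP-GlcNAc, and Uxs1 (1.86), which makes UDP-xylose. Gfpt1, the form of the opening enzyme that was tested, stood at 27.4.

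Pairs of related genes showed which member held most of the RNA in the scraping. The phosphomannomutase Pmm2 stood at a median of 12.98 times the level of Pmm1 per length (7.23 to 18.6 over the mice). Gmppa, the regulatory subunit of GDP-mannose pyrophosphorylase, stood at 3.68 times its catalytic partner Gmppb (2.65 to 4.99), above it in 23 of 23 mice. The UDP-GlcNAc pyrophosphorylase Uap1 was closer to its paralog Uap1l1, with a median ratio of 1.19 (0.862 to 1.69). Slc35b2 and Slc35b3, which both carry the sulfate donor PAPS, had a median ratio of 1.52 (0.944 to 2.002). Slc35c1, the GDP-fucose carrier, stood at 0.292 of Slc35c2 (0.235 to 0.367). These pairs were chosen after the values had been seen and were not tested.

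Among mice, the steadiest tested member was Slc35a4, with a coefficient of variation of 7.51% over all 23 libraries, followed by Gne (8.02%) and Slc35a3 (8.43%). The most variable were Pmm1 (23.7%), Gmds (18.1%) and Fpgt (17.8%). Pmm1 ranged over 101 to 229 counts in a library and Gmds over 656 to 1419, so Pmm1 carries more counting error.

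**Figure D2:**
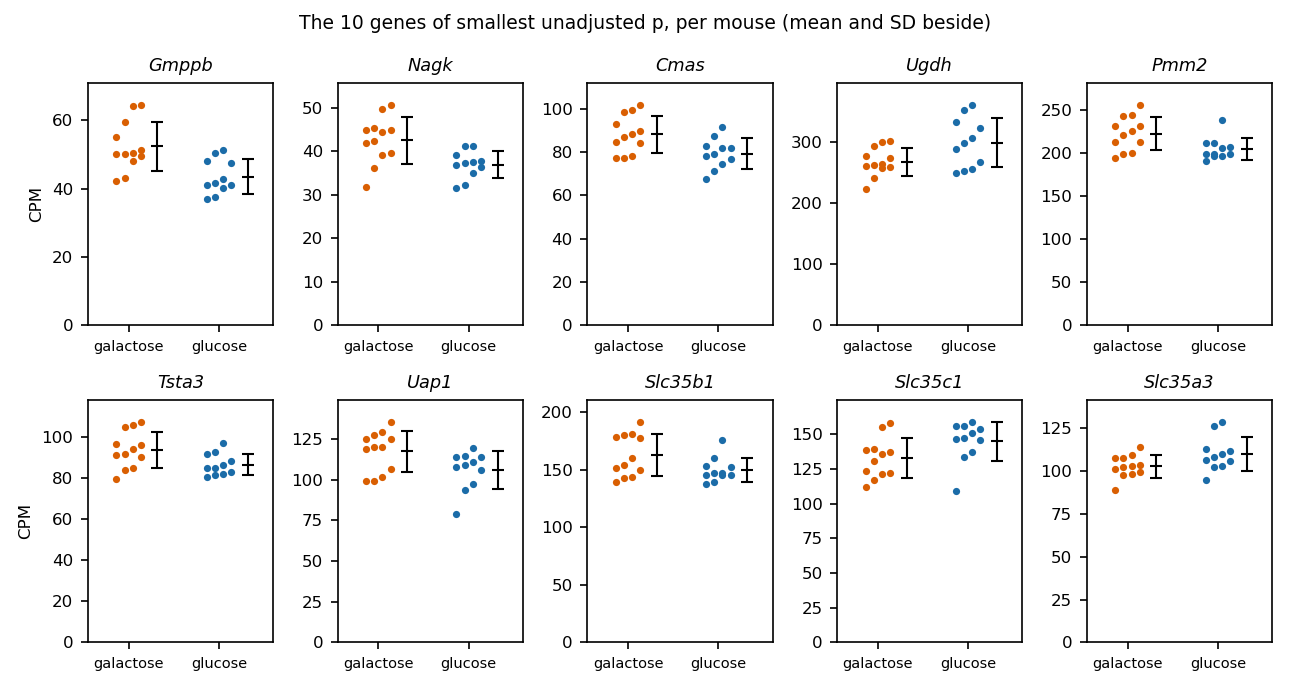
CPM in each mouse for the 10 members of smallest unadjusted p, with galactose in orange and glucose in blue. The bar beside each group is its mean and SD, and every axis starts at 0. The groups overlap in all 10 panels, and all 12 galactose mice lie above the glucose median of 41.6 CPM for Gmppb.

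GDP-mannose was the branch where every member had a positive difference (5 of 5, median log2 difference 0.12). Gmppb, the catalytic subunit that makes GDP-mannose, had 42.4, 50.4 and 64.5 CPM in the lowest, median and highest galactose mouse, and 37.02, 41.6 and 51.5 CPM in the glucose mice. All 12 galactose mice were above the glucose median and 4 were above the highest glucose mouse. The means were 52.4 ± 7.17 CPM (SD, n = 12) and 43.5 ± 5.03 CPM (SD, n = 11). The log2 difference was 0.27 ± 0.07 (SE), with a 95% interval of 0.11 to 0.42, an unadjusted p of 0.0012 and an adjusted p of 0.138 by edgeR. It was 0.24 without galactose replicate 2, the library with the highest value, and 0.27 without replicate 12. The exons of Gmppb share 937 bases with Rnf123 on the opposite strand, and since the strand setting of the counting is not given in the sources used here, reads from these shared bases cannot be told apart. Its longest transcript has 2702 bases.

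Pmm2, which turns mannose-6-phosphate into mannose-1-phosphate, had 194, 223 and 256 CPM in the lowest, median and highest galactose mouse and 191, 199 and 238 CPM in the glucose mice. The groups overlapped, and 10 of 12 galactose mice were above the glucose median. This gave a log2 difference of 0.12 ± 0.05 (SE; edgeR p = 0.0288, adjusted p = 0.293). The differences of the other 3 were 0.15 ± 0.13 (SE) for Pmm1, 0.09 ± 0.06 (SE) for Gmppa and 0.08 ± 0.06 (SE) for Mpi, the isomerase that links mannose to glycolysis, and each interval included 0.

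In the UDP-GlcNAc branch 4 of 6 tested members had a positive difference (median log2 difference 0.06), and 2 of these had an unadjusted p under 0.05. Nagk salvages free GlcNAc from degraded sugar chains. It had 31.7, 43.4 and 50.7 CPM in the lowest, median and highest galactose mouse and 31.6, 37.3 and 41.3 CPM in the glucose mice. The lowest values of the groups were alike, and 8 of 12 galactose mice lay above the highest glucose mouse. The means were 42.6 ± 5.41 CPM (SD, n = 12) and 36.95 ± 3.14 CPM (SD, n = 11), a log2 difference of 0.20 ± 0.07 (SE; edgeR p = 0.00524, adjusted p = 0.191).

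Uap1 catalyses the last step to UDP-GlcNAc. It had 99.0, 120.1 and 135 CPM in the lowest, median and highest galactose mouse and 78.9, 109 and 119 CPM in the glucose mice. Of the galactose mice, 7 of 12 lay above the highest glucose mouse and the others within the glucose range. Its log2 difference was 0.15 ± 0.07 (SE; edgeR p = 0.0366, adjusted p = 0.32), and without replicate 12 the unadjusted p was 0.0615. The other differences in the branch were 0.10 ± 0.07 (SE) for Uap1l1, 0.02 ± 0.08 (SE) for the acetyltransferase Gnpnat1, -0.07 ± 0.09 (SE) for the mutase Pgm3 and -0.08 ± 0.07 (SE) for Gfpt1. Gfpt1, the rate-limiting enzyme, thus had a difference of the other sign than Nagk and Uap1, although 5 of 12 galactose mice lay below the lowest glucose mouse and 5 of 12 above the glucose median. Gnpnat1 shares 3878 exonic bases with Styx and Pgm3 shares 1270 with Dop1a, both on the opposite strand.

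In the sialic acid branch the median log2 difference was 0.10 and 2 of 3 members were positive. Cmas, the nuclear enzyme that makes CMP-sialic acid, had 77.1, 87.5 and 102 CPM in the lowest, median and highest galactose mouse and 67.4, 79.1 and 91.5 CPM in the glucose mice. The groups overlapped, and 9 of 12 galactose mice were above the glucose median. The log2 difference was 0.15 ± 0.06 (SE; edgeR p = 0.0138, adjusted p = 0.234). Nans, which makes the 9-phosphate of sialic acid, had a difference of 0.10 ± 0.07 (SE) and shares 1356 exonic bases with Trim14 on the opposite strand. Gne, the rate-limiting enzyme that opens the branch from UDP-GlcNAc, had -0.02 ± 0.05 (SE), with a 95% interval of -0.13 to 0.09.

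GDP-fucose is made from GDP-mannose by Gmds and Tsta3, and from free fucose by a salvage route that uses Fpgt. Tsta3 had 79.7, 92.8 and 107 CPM in the lowest, median and highest galactose mouse and 80.4, 85.1 and 97.2 CPM in the glucose mice. The ranges nested, with 3 galactose mice above and 1 below all glucose mice. The log2 difference was 0.12 ± 0.05 (SE; edgeR p = 0.0336, adjusted p = 0.31), and without galactose replicate 2 the unadjusted p was 0.0647. Gmds had a larger difference with a larger error, 0.18 ± 0.10 (SE; edgeR p = 0.0831), and Fpgt had -0.06 ± 0.10 (SE).

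Ugdh oxidises UDP-glucose to UDP-glucuronate, the sugar donor of drug and bilirubin glucuronidation and of glycosaminoglycans. It had 223, 264 and 302 CPM in the lowest, median and highest galactose mouse and 250.1, 299 and 361 CPM in the glucose mice. Of the 11 glucose mice, 8 were above the galactose median, and 2 of 12 galactose mice were below the lowest glucose mouse. For Ugdh the log2 difference was -0.16 ± 0.07 (SE; edgeR p = 0.0266, adjusted p = 0.285). Uxs1, which acts on its product, had -0.02 ± 0.08 (SE) at 106 to 185 counts a library, and this small difference changed sign with several settings.

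Of the carriers, Slc35b1 had the smallest p. It had 139.6, 157 and 191 CPM in the lowest, median and highest galactose mouse and 138, 147 and 175 CPM in the glucose mice. The groups overlapped, with 5 galactose mice above all glucose mice. The log2 difference was 0.12 ± 0.06 (SE; edgeR p = 0.0538, adjusted p = 0.358), and without replicate 12 the unadjusted p was 0.0367. The other SLC35B carriers had log2 differences of 0.14 ± 0.09 (SE) for Slc35b2, 0.04 ± 0.08 (SE) for Slc35b3 and -0.05 ± 0.08 (SE) for Slc35b4.

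Slc35c1 and Slc35a3 were the carriers lowest on galactose relative to glucose. Slc35c1 had 112, 133 and 158 CPM in the lowest, median and highest galactose mouse and 109, 147 and 159 CPM in the glucose mice. The ranges nearly coincided, but 10 of 11 glucose mice were above the galactose median. The log2 difference was -0.13 ± 0.06 (SE; edgeR p = 0.0556, adjusted p = 0.361), and without replicate 12 the unadjusted p was 0.044. Slc35a3, a UDP-GlcNAc carrier, had 88.7, 103 and 114 CPM in the lowest, median and highest galactose mouse and 94.98, 108 and 128 CPM in the glucose mice. The ranges overlapped, and 9 of 11 glucose mice were above the galactose median. The difference was -0.10 ± 0.05 (SE; edgeR p = 0.0609, adjusted p = 0.373).

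Slc35c2, the most abundant member per length, had 281, 307 and 398 CPM in the lowest, median and highest galactose mouse and 272, 292 and 329.7 CPM in the glucose mice. The highest value was that of replicate 2, the library with pancreatic genes, and the log2 difference was 0.10 ± 0.06 (SE) with it and 0.06 without it. Slc35a4, the SLC35A member of highest level, had 67.7, 75.7 and 89.2 CPM on galactose and 69.2, 76.4 and 86.5 CPM on glucose (log2 difference 0.01 ± 0.05, SE). These groups covered nearly the same range, and the 95% interval of the difference ran from -0.10 to 0.11. The remaining carriers had differences of 0.06 ± 0.06 (SE) for Slc35a2, the carrier of UDP-galactose, -0.04 ± 0.10 (SE) for Slc35a1, the carrier of CMP-sialic acid, and -0.08 ± 0.07 (SE) for Slc35a5. Slc35d1, a carrier of UDP-glucuronate and UDP-GalNAc, had -0.07 ± 0.07 (SE) and Slc35d2 had 0.14 ± 0.09 (SE).

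**Figure D3:**
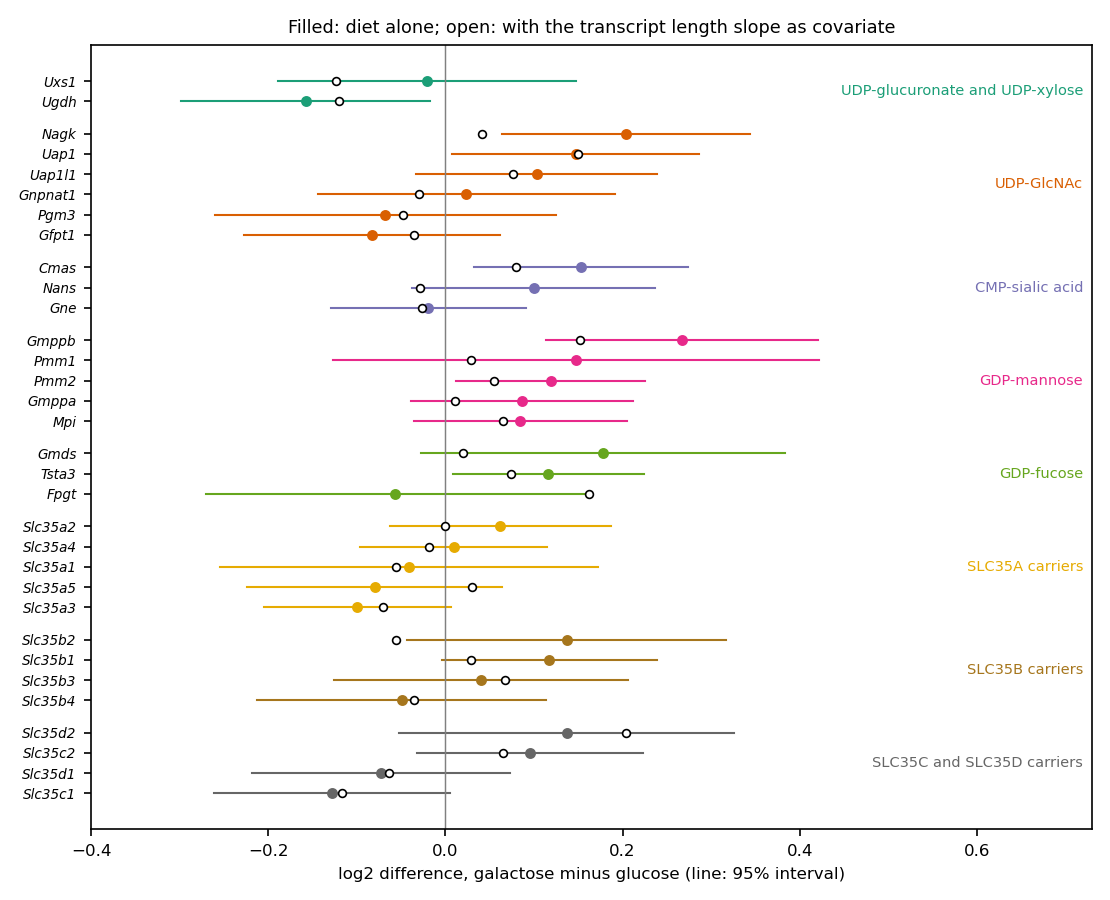
Log2 difference of each tested member, galactose minus glucose, by branch. Filled points are edgeR estimates with diet alone, lines their 95% intervals (2.08 SE), and open points estimates with the transcript length slope of the library as a covariate. Gmppb lies at 0.27 with diet alone and 0.15 with the covariate, and Nagk at 0.20 and 0.04.

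The members' differences followed the length of their transcripts. Across the 32 members, Pearson's r of the log2 difference with log2 length was -0.69 and Spearman's rho -0.67, and across 13384 genes with a length they were -0.31 and -0.39. Genes are not independent replicates and share the libraries, so these are descriptions. Of 16 members at or under the members' median length of 2684 bases, 14 had a positive difference (median log2 0.12), and of the 16 longer ones 6 did (median -0.03). Ugdh (6156 bases), Gfpt1 (6238 bases) and Slc35a3 (5725 bases) were among the longest members, and Nagk (1918 bases) and Tsta3 (1603 bases) among the shorter ones. Gmppb (2702 bases) and Cmas (3236 bases) were longer than the members' median and had positive differences. The median length of all tested genes with a length was 3228 bases. Among all genes, the length groups with medians of 2532.5, 2997 and 3492 bases had median log2 differences of 0.030, 0.014 and -0.0059.

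**Figure D4:**
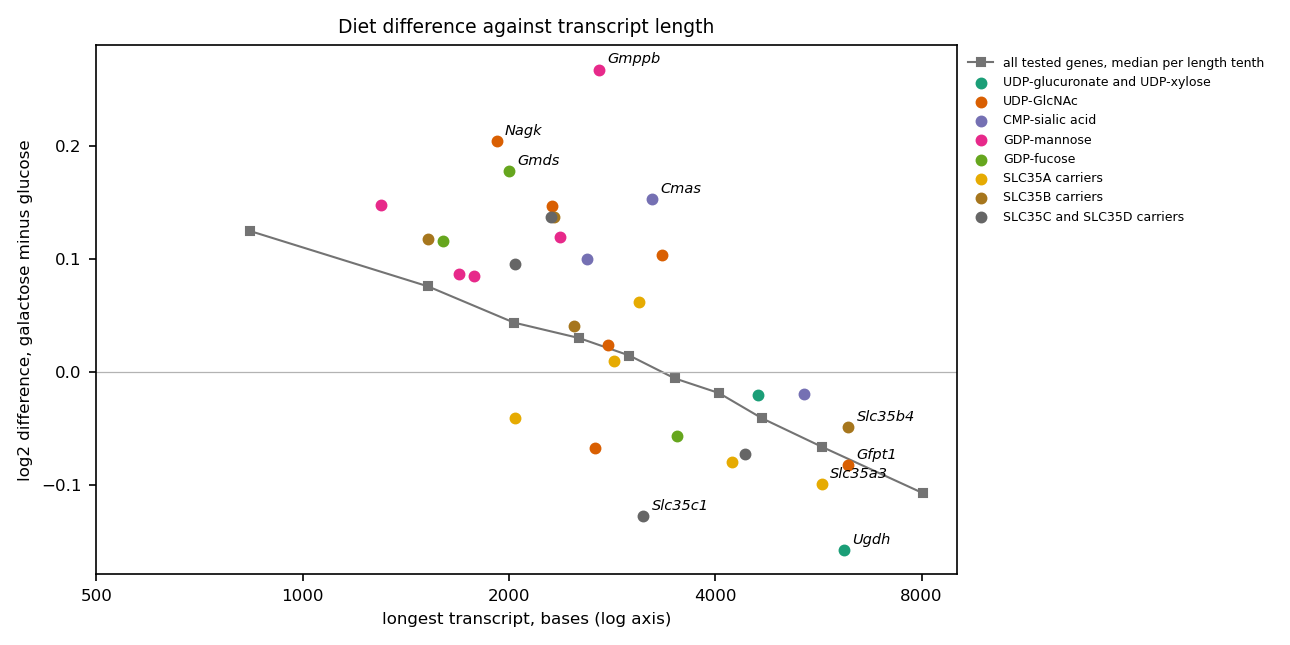
Log2 difference of each tested member against its longest transcript in bases (log axis), coloured by branch. Grey squares are the medians of all tested genes in 10 groups by length, which run from 0.12 in the shortest group to -0.11 in the longest. Gmppb and Cmas lie above the grey line, Slc35c1 and Ugdh below it.

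The same trend can be measured per library by regressing each gene's deviation from its average log2 CPM on the log2 of its transcript length. The slope of that line, the length slope, was -0.0289 ± 0.0553 (SD, n = 12) on galactose and 0.0315 ± 0.0450 (SD, n = 11) on glucose (two-sided permutation test with 100000 resamples, p = 0.0101, adjusted p = 0.0748 over 26 measures of composition). With the slope as a covariate, edgeR had 0 of 32 members at an unadjusted p under 0.05, in a background of 6.61% of all genes, and 17 members with a positive difference (51.4% of all genes). The value for Gmppb was then 0.15, for Nagk 0.04, for Cmas 0.08, for Pmm2 0.06, for Ugdh -0.12 and for Uap1 0.15. The median of the enzymes was then 0.03 and that of the carriers -0.02. By branch it was 0.0059 for UDP-GlcNAc, 0.06 for GDP-mannose, 0.07 for GDP-fucose, -0.0033 for the SLC35B carriers and 0.00087 for the SLC35C and SLC35D carriers, against -0.03 for CMP-sialic acid, -0.02 for the SLC35A carriers and -0.12 for UDP-glucuronate and UDP-xylose. Galactose replicate 7, without which edgeR called Gmppb and Nagk, had the highest slope of the galactose mice (0.0795). Diet and the slope moved together, and the slope's part in the differences and in those calls was not tested.

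Lists of marker genes of other cells and of ER load were read too, and none differed between the diets at an adjusted p under 0.05. ER chaperone genes, which fold newly made secretory proteins, had a positive difference in 14 of 16, with 9 at an unadjusted p under 0.05 (14.4% of all genes) and a median log2 difference of 0.17. With the length slope as a covariate 0 of 16 were at that p and the median was 0.11. They took 0.286 to 0.359% of counts on galactose and 0.245 to 0.330% on glucose (permutation p = 0.00945, adjusted p = 0.0748), and none was near 0 counts in any library. T cell markers were positive in 8 of 8, with 0.00956 to 0.0246% of counts on galactose and 0.00331 to 0.0183% on glucose (permutation p = 0.0274, adjusted p = 0.119). By edgeR 6 of the 8 were higher at an unadjusted p under 0.05 (8.63% of all genes), and 3 with the length slope as a covariate. The T cell score had a permutation p of 0.0114 (adjusted p = 0.0748). Goblet cell markers took 0.554 to 0.942% on galactose and 0.683 to 1.01% on glucose (permutation p = 0.0253, adjusted p = 0.119), and 5 of 8 had a negative difference. The goblet cell score, which weighs all 8 markers alike, had a permutation p of 0.109 (adjusted p = 0.39). Paneth cell markers were positive in 0 of 9 (median log2 difference -0.28), smooth muscle markers in 0 of 8 (-0.23), fibroblast markers in 0 of 7 tested (-0.23) and plasma cell markers in 6 of 6 tested (0.21). The scores of these 4 lists had adjusted permutation p-values of 0.728, 0.605, 0.581 and 0.674. With the length slope as a covariate, edgeR had 5 of 9 Paneth cell markers lower at an unadjusted p under 0.05 (376 of all 13405 genes were), with a median of -0.64. Plasma cell markers were then positive in 3 of 6 (median -0.07), and the smooth muscle and fibroblast medians were -0.28 and -0.13. The part of these cells and of ER load in the members' differences was not tested.

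**Figure D5:**
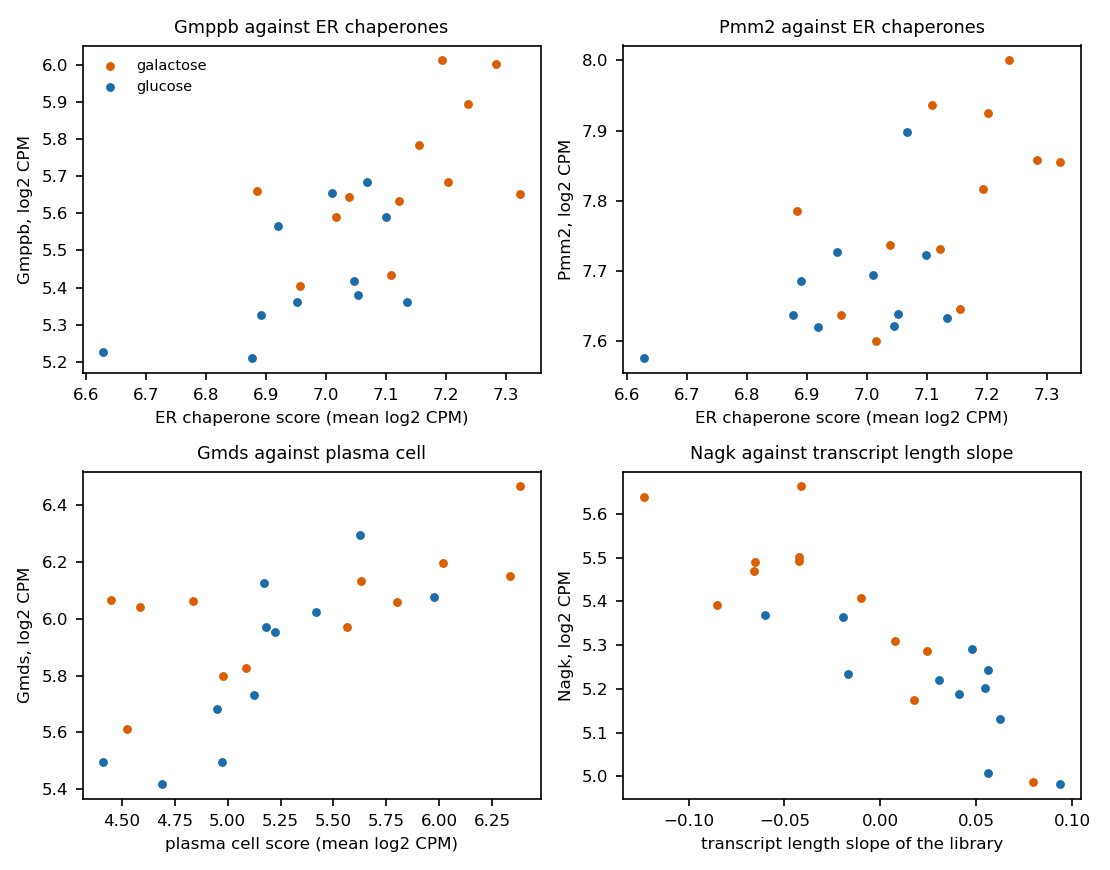
Gmppb and Pmm2 against the ER chaperone score, Gmds against the plasma cell score and Nagk against the transcript length slope, with members as log2 CPM and 1 point a mouse (orange galactose, blue glucose). Gmppb, Pmm2 and Gmds rise along their scores over all 23 mice (r 0.70, 0.62 and 0.69) and Nagk falls along the slope (r -0.87).

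Mouse by mouse, 160 relations were computed, of the 32 members with 5 scores, and p-values were adjusted over all of them. A score averages the log2 CPM of the tested markers of a list, and for the pancreas the share of counts was used. All 23 libraries enter, and they share the diets and their composition. Gmppb went with the ER chaperones (r = 0.70, rho = 0.67, permutation p = 0.00021 and 0.0006, adjusted p = 0.008 and 0.0218). Its r was 0.58 within galactose and 0.56 within glucose, neither of which passed (permutation p = 0.0516 and 0.0671), and 0.69 without the 2 libraries farthest from the median of the score. Pmm2 went with the same score (r = 0.62, rho = 0.60, permutation p = 0.00135 and 0.00279, adjusted p = 0.024 and 0.0406), with r of 0.56 within galactose and 0.43 within glucose, which did not pass (permutation p = 0.058 and 0.168), and 0.56 without the 2 farthest libraries. Over the 32 members, 2 relations with this score were called, and the median r was 0.17. The share of all genes with such a relation was not computed.

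Gmds went with the plasma cell score (r = 0.69, rho = 0.69, permutation p = 0.00026 and 0.00045, adjusted p = 0.008 and 0.0218), and did so within galactose (0.68), within glucose (0.82) and without the 2 farthest libraries (0.61). Ugdh went the other way with that score (r = -0.57, rho = -0.57, permutation p = 0.00451 and 0.00446, adjusted p = 0.0515 and 0.0537), which did not pass, with r of -0.58 within galactose, -0.66 within glucose and -0.47 without the 2 farthest. Plasma cell markers took 0.0808 to 0.391% of counts on galactose and 0.0761 to 0.258% on glucose, 6 of 8 were tested, and Mzb1 had 0 to 5 counts.

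The largest r was that of Nagk with the length slope (r = -0.87, rho = -0.87, permutation p = 1e-05 for both, the smallest that the resamples can give, adjusted p = 0.0008 and 0.0016). It was -0.84 within galactose, -0.77 within glucose and -0.87 without the 2 farthest libraries. Slc35b2 was next with this score (r = -0.74, rho = -0.79, permutation p = 8e-05 and 4e-05, adjusted p = 0.00427 and 0.0032), with r of -0.69 within galactose, -0.79 within glucose and -0.72 without the 2 farthest. Of the 32 members, 9 had a called relation with the slope, 8 of them negative. The slope is itself computed from the log2 CPM and lengths of the tested genes, the members among them. The share of all genes with such a relation was not computed, so whether these relations are particular to the members was not tested.

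Slc35c2 went with the share of pancreatic acinar genes (r = 0.58, rho = 0.64, permutation p = 1e-05 and 0.00122, adjusted p = 0.0008 and 0.0325). That share stood apart in galactose replicate 2, and without it and the other farthest library r was 0.73. Of the 12 genes 7 had a median of 0 counts over the libraries. Cela1 had 53 counts or more in each library and a median of 80, and the next highest median was 15, for Ctrl. Outside replicate 2 the share thus rests mainly on Cela1, and r there is not a relation with the 12 genes as a set. Gfpt1 had its largest r with the goblet cell score (r = 0.53, rho = 0.49, permutation p = 0.00824 and 0.0187, adjusted p = 0.0776 and 0.125), which did not pass. It was 0.74 within galactose, -0.08 within glucose and 0.52 without the 2 farthest libraries, and no member had a called relation with that score.

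Pairs of members were compared in the same way, a step added after the data had been seen. Of 496 pairs, 18 passed by Pearson's r after adjustment over all pairs, 16 positive and 2 negative, and 0 of the 54 pairs within a branch were among them. The median r was 0.15 within a branch and 0.05 across branches. The share of pairs of all genes that would pass was not computed. Whether pairs of members, or pairs within a branch, differ from other pairs was not tested. The smallest p belonged to Gmppa with Slc35a2, the UDP-galactose carrier (r = 0.78, rho = 0.85, permutation p = 4e-05 and 1e-05, adjusted p = 0.0116 and 0.00496). Its r was 0.84 within galactose, 0.60 within glucose and 0.79 without the 2 farthest libraries. Gmppb went with Cmas (r = 0.73, rho = 0.64, permutation p = 7e-05 and 0.00125, adjusted p = 0.0116 and 0.0775), with 0.69 within galactose, 0.51 within glucose and 0.65 without the 2 farthest libraries. Ugdh and Gmds went in opposite directions (r = -0.74, rho = -0.60, permutation p = 0.00011 and 0.00318, adjusted p = 0.0136 and 0.135), with -0.57 within galactose, -0.77 within glucose and -0.69 without the 2 farthest libraries. The last 2 pairs passed by r and not by rho.

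Since Gmppb and Pmm2 went with the ER chaperones, promoters were searched for the elements through which ER stress factors act on chaperone genes. The RefSeq promoter table (GRCm38.p6, 250 bases before to 50 after the start) held 25 of the 33 members, among them Pmm2 but not Gmppb, and 14 of the 16 chaperones. The ER stress response element, CCAAT and CCACG with 9 bases between them, on either strand, was in 0 of 25 members, in 6 of 14 chaperones (Hspa5, Hsp90b1, Pdia6, Dnajc3, Creld2 and Calr) and in 0.137% of 27025 genes. The second form, ATTGG and CCACG with 1 base between them, was in 0 members, 2 chaperones and 0.0444% of genes, and TGACGTGG was in 0 members, 0 chaperones and 0.714% of genes. The parts alone are common among all genes. CCACG, which ends both longer elements, was in 11 of 25 members, 12 of 14 chaperones and 35.5% of genes. CCAAT was in 7 of 25 members, 13 of 14 chaperones and 41.1% of genes. A match is a description of letters, and no match says only that these letters are not in the window.

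For Calr and Creld2 the stretch that holds the whole element is shown, in capitals, 5′ to 3′ on the strand of the gene, at chr8:84847055-84847113 (minus strand) and chr15:88819500-88819558 (plus strand).
Calr: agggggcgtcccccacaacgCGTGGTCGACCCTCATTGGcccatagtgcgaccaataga
Creld2: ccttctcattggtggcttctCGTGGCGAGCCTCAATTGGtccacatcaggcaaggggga

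Members of small p or of the pathway's entry are shown in the same way, for comparison, with CCAAT or CCACG of either strand in capitals. They lie at chr1:170174965-170175114 (minus strand) for Uap1, chr6:87042696-87042845 (plus strand) for Gfpt1, chr6:142756536-142756685 (plus strand) for Cmas and chr6:83794832-83794981 (plus strand) for Nagk, which holds neither.
Uap1: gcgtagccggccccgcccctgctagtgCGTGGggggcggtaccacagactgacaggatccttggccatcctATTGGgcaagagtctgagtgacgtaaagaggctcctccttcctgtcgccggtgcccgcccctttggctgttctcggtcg
Gfpt1: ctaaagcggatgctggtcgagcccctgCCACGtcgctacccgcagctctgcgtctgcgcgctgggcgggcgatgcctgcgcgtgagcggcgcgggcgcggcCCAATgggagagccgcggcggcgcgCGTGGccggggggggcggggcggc
Cmas: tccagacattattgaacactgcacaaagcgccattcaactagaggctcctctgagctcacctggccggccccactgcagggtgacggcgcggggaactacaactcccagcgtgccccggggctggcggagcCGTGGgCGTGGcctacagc
Nagk: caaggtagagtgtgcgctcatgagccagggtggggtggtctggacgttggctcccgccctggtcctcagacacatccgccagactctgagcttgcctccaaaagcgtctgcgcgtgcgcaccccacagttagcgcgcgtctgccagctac

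Genes around the members were read from lists in the same edgeR fit, and 0 of them were called. Without galactose replicate 7, Gpi1 (adjusted p = 0.0388) and Mgat4a (adjusted p = 0.0394) were called by edgeR. Without replicates 7 and 12 together, 2 genes of synthesis and salvage, 1 GlcNAc transferase and 1 gene of Golgi nucleotide and ion balance were called, and without replicate 12 alone 0 were. Of 8 genes by which galactose enters the UDP-sugars, 3 were higher at an unadjusted p under 0.05 and 0 lower, against 8.63% and 5.72% of all genes, with a median log2 difference of 0.11. With the length slope as a covariate 0 of 8 were at that p and the median was 0.03. Among the 3 were Galt, which transfers UMP to galactose-1-phosphate (0.16), and Galk2, a GalNAc kinase (0.13). Of 12 tested steps of synthesis and salvage outside the members, 2 were higher, 1 was lower and the median was 0.07. Gpi1, the isomerase that makes fructose-6-phosphate, had 1260.5 ± 159 CPM on galactose (SD, n = 12) and 1052 ± 97.3 CPM on glucose (SD, n = 11), a log2 difference of 0.26 ± 0.07 (SE; edgeR adjusted p = 0.138). Amdhd2, which returns GlcNAc-6-phosphate to glycolysis, had 0.23 ± 0.07 (SE), and Pgm2l1 had -0.35 ± 0.15 (SE).

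Other lists hold genes that use the sugars. Their counts at an unadjusted p under 0.05 stand beside 8.63% of all genes higher and 5.72% lower. Among 13 tested sialyltransferases 0 were higher and 2 lower at that p (St3gal4 -0.15 and St3gal6 -0.15, median -0.08). Among 20 GlcNAc transferases 0 were higher and 3 lower (Mgat4a -0.25, Gcnt4 -0.21 and Mgat4c -0.72, median 0.01), and among 6 fucosyltransferases 0 were higher and 1 lower (the core fucosyltransferase Fut8, -0.17, median -0.02). Of 17 genes that build the dolichol-linked chain, which draws on GDP-mannose and UDP-GlcNAc, 2 were higher (Dpm3 0.32 and Alg1 0.19) and 0 lower, with a median of 0.03. Without replicate 12, 0 of 12 tested sialyltransferases, 0 of 6 fucosyltransferases and 2 of 19 GlcNAc transferases were lower at that p, and of the dolichol genes 1 was higher and 1 lower. Of all 13332 genes tested in that setting, 1127 were higher and 841 lower. Whether these lists differ from all genes was not tested. None of 13 tested glycosaminoglycan genes reached that p (median -0.05). Of 6 genes of Golgi nucleotide and ion balance 1 was higher (Nudt14, 0.28, median 0.0094), and of 10 other SLC35 genes 2 were (Slc35f2 0.17 and Slc35f6 0.13, median -0.05). With the length slope as a covariate the medians were 0.06 for the sialyltransferases, 0.04 for the GlcNAc transferases, 0.03 for the fucosyltransferases, -0.03 for the dolichol genes, 0.02 for the glycosaminoglycan genes, 0.06 for Golgi nucleotide and ion balance, 0.03 for the other SLC35 genes and 0.07 for synthesis and salvage. The value was then -0.08 for Mgat4a, -0.07 for Gcnt4, -0.63 for Mgat4c, -0.17 for St3gal4, 0.06 for Dpm3 and 0.21 for Gpi1.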

How the data were processed

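Per the submitters' processing notes, STAR, HTSeq and the genome build GRCm39 were used, and the sources used here do not give their versions, annotation release or strand setting. For each mouse the authors deposited raw counts of reads per gene. The 5 rows that name no gene held 13.5% of reads and were left out. Symbols were matched by Ensembl identifier for 94.0% of gene rows, and transcript length, the longest transcript, was taken from the GENCODE annotation of GRCm38, so no gene coordinates of the authors' build are given. Chi-square values per degree of freedom of 121 library pairs within groups lay between 12.9 and 51.3, so no library repeats another of its group.

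Counts were filtered with filterByExpr, scaled by TMM and tested with edgeR 4.0.16 (R 4.3.3, quasi-likelihood F test, diet as the only term, all 23 libraries, Benjamini-Hochberg over 13405 genes, threshold 0.05), after a check on simulated data. The SE is the log2 difference divided by the root of F, and intervals are 2.08 SE (95%, 21 degrees of freedom). Log2 CPM used a prior count of 2. Composition and relations across mice were tested by two-sided permutation with 100000 resamples. Precision is set by 11 and 12 mice at about equal depth.

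Alternatives were DESeq2 1.42.0, limma-voom with and without quality weights (limma 3.58.1), other scalings and filters, the length slope as a covariate and each library left out. The pancreatic list had 2 tested markers, so its share of counts replaced its score. All tested members are named, values by mouse are given for the 10 of smallest p and the highest level of each branch, and pathway genes are named at an unadjusted p under 0.05, at most 4 a list, except 1 that is not reported here. Of the relations, 8 of smallest adjusted p are named, at most 2 a score. The members and lists were chosen with earlier results of these data known.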

Additional observations from a re-analysis of the deposited data

How the results depend on the processing

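Under other scalings (RLE and upper quartile), limma-voom, no filter and a filter of 1 CPM in 11 libraries, the counts stayed within 1.5 times, the medians within 1 SD over mice and the members' signs unturned, and edgeR and limma-voom called 0 genes. DESeq2 called 132 genes and 1 member, limma-voom with quality weights 167 and 1. Without galactose replicates 7 and 12 together, chosen after seeing the data, edgeR called 321 genes and 2 members, with 11 members at an unadjusted p under 0.05. Leaving out 1 library at a time gave 0 to 219 genes called, 0 to 2 members called, 4 to 10 members at an unadjusted p under 0.05 (4 without galactose replicate 5), 19 to 21 positive differences and a member median of 0.06 to 0.09. Calls appeared without galactose replicate 7 only. With the length slope as a covariate, 0 members were at that p, the median log2 difference was 0.016 over the members, -0.026 for CMP-sialic acid and 0.061 for the sialyltransferases, and the signs turned for Gnpnat1 (-0.030), Nans (-0.028), Fpgt (0.16), Slc35a2 (-0.00029), Slc35a4 (-0.018), Slc35a5 (0.030) and Slc35b2 (-0.055). Uxs1 turned with quality weights (0.014) and without replicates 7 and 12 (0.0054). With 1 library left out, the range crossed 0 for Uxs1 (-0.049 to 0.010), Gnpnat1 (-0.019 to 0.041), Gne (-0.043 to 0.0053) and Slc35a4 (-0.015 to 0.025). The cause of these changes was not tested.

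Within 1 diet some relations no longer passed by permutation: Slc35c2 with the pancreatic share in glucose (r = 0.598, p = 0.0545), Gmppb with ER chaperones in galactose (r = 0.576, p = 0.0516) and glucose (r = 0.557, p = 0.0671), and Pmm2 with them in galactose (r = 0.563, p = 0.058) and glucose (r = 0.432, p = 0.168). Gfpt1 with the goblet cell score turned in glucose (r = -0.0756, p = 0.832). Without replicate 12 the 8 named relations kept their sign and side. Residuals on the length slope could not be used for the relations with that slope itself. No paired analysis was possible because the labels pair no mice across the diets, and replicate numbers only name samples in accession order.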
